A study of Mus musculus with 30 samples.

Results

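The 10 crystallin genes Cryaa, Cryab, Cryba1, Cryba2, Cryba4, Crybb1, Crybb2, Crybb3, Crygb and Crygs were examined in RNA-seq libraries of whole mouse retina. They were picked by gene symbol and make up 10 of the 12573 genes of the deposited expression table, and were chosen with their differences between mutant and WT retinas known. Those differences are therefore given as a description, calls included, and nothing is read from the calls. The comparison of WT ages did not choose the genes. The table holds 30 libraries in 10 groups of 3, named A, B and C, and each library was a pool of 4 retinas from 1 male and 1 female. The mice carried knock-in alleles of Crx, the gene of a homeodomain transcription factor of photoreceptors, on a C57BL6/J background, and each allele was present in every cell of the animal. R90W is a missense change in the homeodomain with reduced function. E168d2 is a frameshift that truncates the protein and acts against the normal copy, and E168d2neo is the same allele with a neomycin cassette left in an intron, which lowers the amount of mutant protein. At postnatal day 10 (P10) the groups were WT, R90W/+, R90W/W, E168d2neo/+, E168d2/+ and E168d2/d2. At P21 they were WT, R90W/+, E168d2neo/+ and E168d2/+, and the WT mice of that age were littermates of the mutants. The homozygotes were sampled at P10 only.

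Crystallins are the main soluble proteins of the lens. The alpha crystallins Cryaa and Cryab are small heat shock proteins that hold unfolding proteins in solution, and Cryab is also made in many tissues outside the lens, among them retinal glia. The beta and gamma crystallins share 1 fold and pack densely in lens fibre cells, where the gamma class is most typical of the fibre core. In the retina crystallin transcripts are usually scarce, and the lens, which lies in front of it, is removed when the retina is dissected.

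Each library held about 13900000 to 26200000 reads on genes. Levels are given in CPM, the reads of a gene per 1000000 reads on genes, so that 1 read was worth at most 0.0719 CPM and 0 reads allowed a level of up to 0.114 to 0.216 CPM (3 reads, counting error only). The inner retinal markers Grm6, Pax6 and Calb2 lay between 187 and 483 CPM in every library, whereas the photoreceptor genes Rcvrn and Arr3 were near 0 in E168d2/d2 P10 (0.455 to 0.707 CPM and 0.273 to 0.762 CPM). In R90W/+ P21 C, 1.463% of the reads on genes fell on genes outside the table, against at most 0.844% in the other libraries.

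The genes lie on 6 chromosomes of mouse build mm9 and carry 3 to 7 exons. Cryaa is on chr17:31814878-31818667 and Cryab on chr9:50560863-50564738, 403 bases from Hspb2, another small heat shock gene that is read in the opposite direction. The acidic beta crystallins are Cryba1 on chr11:77532117-77538785, Cryba2 on chr1:74936508-74939717 and Cryba4 on chr5:112675513-112681538. Cryba4 is separated from Crybb1, a basic beta crystallin on chr5:112684835-112698605, by 3296 bases. Crybb2 on chr5:113487278-113499137 and Crybb3 on chr5:113504859-113510604 are also neighbours, 5721 bases apart. Crygs, the gamma crystallin of the lens cortex, is on chr16:22805276-22811483. Crygb on chr1:65126804-65128862 is the member whose reads are least certain, since 180 of the 582 stretches of 42 bases in its transcript (30.9%) also occur in Cryga or Crygc, which were not analysed here. The other 9 transcripts shared no such stretch with another gene.

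The promoters of 5 of the members are shown, from 250 bases before to 50 after the start of the gene in RefSeq (build GRCm38.p6), written 5′ to 3′ on the strand of the gene. Whether they bear on the differences between libraries was not tested. Capitals mark the letters TGCTGA, the half-site bound by the Maf factors that drive lens genes, TAATCC, the core of the CRX site, and TATAAA, the TATA box, each searched on both strands, so that TCAGCA is TGCTGA on the opposite strand. The motifs do not overlap each other in these windows. Cryaa and Crybb1 were chosen as an alpha and a beta crystallin that reached high levels, and Crygs and Crygb as the gamma crystallins. Crybb3 was chosen as a member above Cryaa in every WT P10 library.
Cryaa, chr17:31677681-31677980, + strand: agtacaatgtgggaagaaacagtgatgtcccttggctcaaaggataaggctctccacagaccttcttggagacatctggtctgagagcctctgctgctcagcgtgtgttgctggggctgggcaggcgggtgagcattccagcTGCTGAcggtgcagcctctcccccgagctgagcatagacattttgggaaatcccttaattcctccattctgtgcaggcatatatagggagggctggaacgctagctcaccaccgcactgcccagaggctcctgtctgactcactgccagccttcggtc
Crybb1, chr5:112255570-112255869, + strand: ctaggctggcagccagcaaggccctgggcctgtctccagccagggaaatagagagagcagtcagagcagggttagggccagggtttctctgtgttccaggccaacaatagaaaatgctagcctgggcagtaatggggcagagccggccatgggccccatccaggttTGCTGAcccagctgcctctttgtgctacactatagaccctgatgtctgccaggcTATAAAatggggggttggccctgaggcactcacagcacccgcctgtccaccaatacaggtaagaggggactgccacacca
Crybb3, chr5:113081535-113081834, - strand: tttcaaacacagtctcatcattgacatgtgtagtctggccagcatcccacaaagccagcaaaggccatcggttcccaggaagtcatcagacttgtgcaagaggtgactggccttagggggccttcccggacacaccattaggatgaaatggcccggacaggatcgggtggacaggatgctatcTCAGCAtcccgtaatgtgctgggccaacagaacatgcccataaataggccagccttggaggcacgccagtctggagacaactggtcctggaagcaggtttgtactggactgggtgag
Crygs, chr16:22811361-22811660, - strand: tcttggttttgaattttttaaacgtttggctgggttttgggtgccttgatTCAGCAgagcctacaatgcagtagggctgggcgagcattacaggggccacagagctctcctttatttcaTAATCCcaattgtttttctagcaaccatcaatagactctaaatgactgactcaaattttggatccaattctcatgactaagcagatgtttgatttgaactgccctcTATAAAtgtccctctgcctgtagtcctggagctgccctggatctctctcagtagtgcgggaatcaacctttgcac
Crygb, chr1:65082241-65082540, - strand: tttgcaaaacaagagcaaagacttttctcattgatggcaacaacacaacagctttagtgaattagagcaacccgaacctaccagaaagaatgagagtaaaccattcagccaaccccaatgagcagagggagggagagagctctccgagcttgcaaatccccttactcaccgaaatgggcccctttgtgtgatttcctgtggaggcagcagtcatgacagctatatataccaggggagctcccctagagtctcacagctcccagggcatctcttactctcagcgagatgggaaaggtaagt

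Promoters were found for 9 of the 10 members, all but Cryab. TGCTGA was in 7 of the 9, against 19.5% of 32851 promoters of the same length, and in Cryaa it began 108 bases before the start. Cryba4 held it 3 times. TATAAA was in 4 of the 9 (13.6% of all promoters) and TAATCC in 1, Crygs, at 131 bases before the start (7.06%). The Crybb2 and Crygb windows held none of the 3 strings, which says only that these letters are not in those windows.

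Crystallin RNA differed widely between libraries, also between libraries of the same group. The CPM of the 10 genes, summed, lay between 32.7 and 97.6 in 23 libraries and was above 100 in 7, reaching 28016 in R90W/+ P21 C, an 858-fold range. The next highest sums were 14392 in R90W/+ P21 A and 13210 in E168d2neo/+ P21 C. E168d2/+ P10 C held 3906, R90W/+ P10 C 1311, R90W/+ P21 B 322 and E168d2/d2 P10 A 203. In R90W/+ P21 C this was 2.80% of all reads on genes. R90W/+ P21 was the group with all 3 libraries above 100 CPM, and in the other 4 groups concerned it was 1 library of 3. None of the R90W/W P10, E168d2neo/+ P10, E168d2/+ P21 or WT libraries passed 100 CPM.

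**Figure D1:**
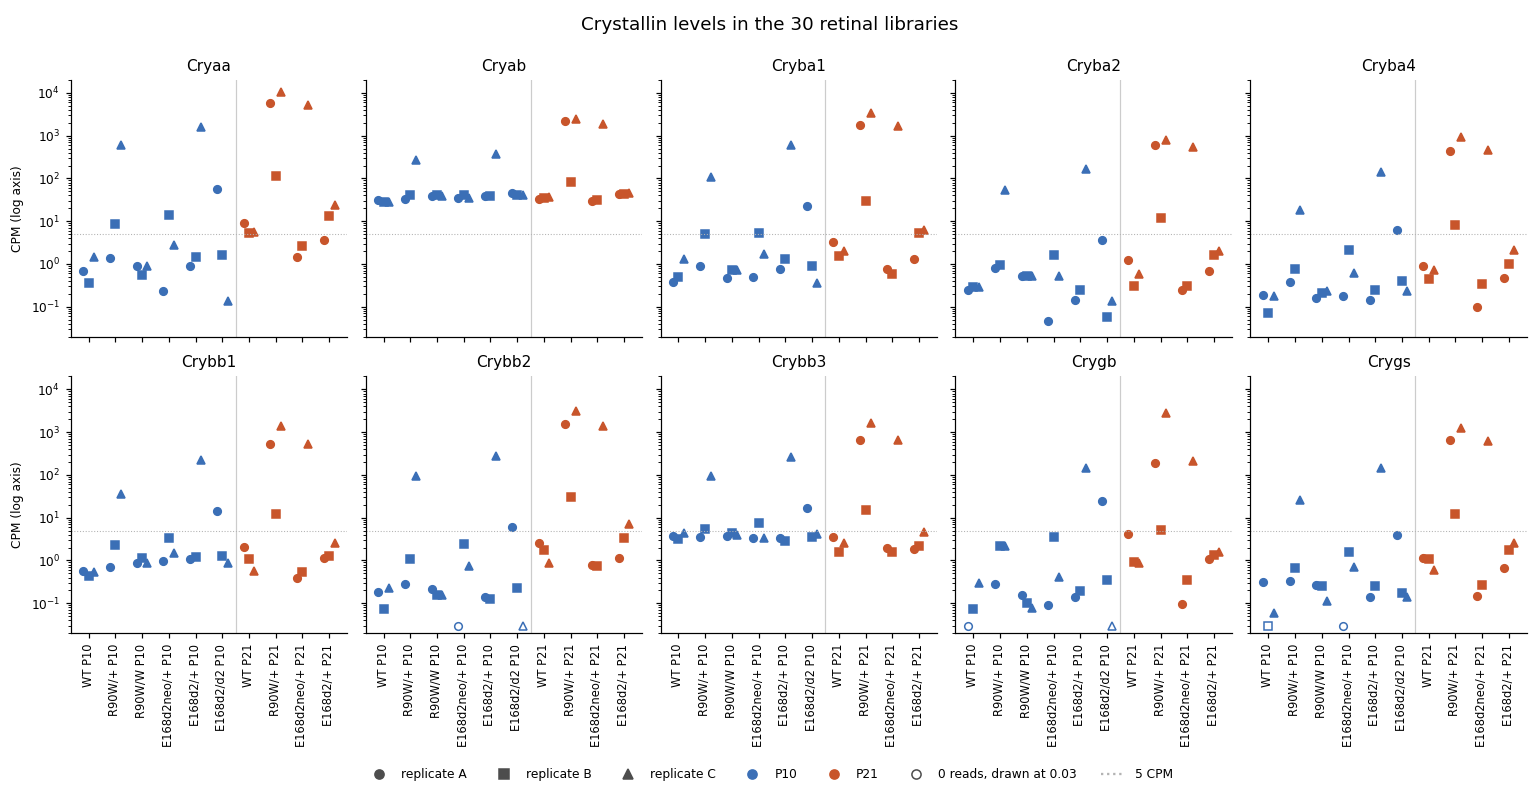
Level of each crystallin in every library, in CPM on a log axis, by group, with a symbol for each replicate and a colour for each age. Cryab stayed between 27.6 and 46.9 CPM in all but 6 libraries, whereas the other members were mostly below 10 CPM and rose together in single libraries, most of all in R90W/+ P21 A and C and E168d2neo/+ P21 C.

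Cryaa, the alpha crystallin largely confined to the lens, had the widest span. In WT P10 its level was 0.690, 0.360 and 1.46 CPM in replicates A, B and C, and in WT P21 9.32, 5.19 and 5.46 CPM. R90W/+ P10 had 1.37, 8.71 and 604 CPM, so that 1 library of this group was far above the other two. In R90W/+ P21 it was 5772, 115 and 10303 CPM, all above every WT library. E168d2neo/+ showed 0.228, 13.7 and 2.81 CPM at P10 and 1.45, 2.62 and 5304 CPM at P21. E168d2/+ showed 0.901, 1.45 and 1562 CPM at P10 and 3.71, 13.0 and 23.9 CPM at P21. The homozygous R90W/W P10 libraries stayed at 0.904, 0.567 and 0.915 CPM, inside the WT P10 range, and E168d2/d2 P10 gave 57.6, 1.61 and 0.137 CPM, on both sides of it.

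The beta crystallins followed Cryaa. Cryba1, an acidic beta crystallin, was at 1737, 30.1 and 3369 CPM in R90W/+ P21 A, B and C and at 3.32, 1.50 and 1.96 CPM in WT P21. Crybb2, the basic beta crystallin that becomes most abundant in the postnatal lens, was at 1556, 30.3 and 3064 CPM in R90W/+ P21, against 2.55, 1.75 and 0.896 CPM in WT P21. In 2 P10 libraries, E168d2neo/+ A and E168d2/d2 C, Crybb2 had 0 reads. Cryba2, Cryba4 and Crybb1 had their highest levels in R90W/+ P21 C as well, at 810, 956 and 1429 CPM. Across all 45 pairs of members the correlation of log2(CPM + 0.1), centred on each group, was between 0.809 and 0.993 over the 30 libraries, as a description, since a few libraries carry most of the spread.

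The gamma crystallins did not keep one ratio to the rest. Crygs was at 654, 12.3 and 1225 CPM in R90W/+ P21 and Crygb at 190, 5.28 and 2809 CPM. Crygb thus exceeded Crygs in replicate C and was below it in A and B. In R90W/+ P10 C Crygb was at 2.17 CPM beside 604 CPM of Cryaa, about the same as the 2.22 CPM of R90W/+ P10 B, where Cryaa was at 8.71 CPM. In E168d2/d2 P10 A Crygb reached 24.7 CPM beside 57.6 CPM of Cryaa.

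These levels also show which libraries brought the genes into the table. The study kept genes with at least 5 CPM in all replicates of a compared group, and R90W/+ P21 was the group in which all 10 members passed this level, the lowest value being 5.28 CPM for Crygb in replicate B. In WT P21 Cryaa and Cryab passed it, and in the other 8 groups Cryab alone did.

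The make-up of the crystallin RNA differed between low and high libraries. In WT P10 the alpha class took 85.0%, 85.9% and 79.8% of the summed CPM of the 10 genes, nearly all of it Cryab, the beta class 14.1%, 13.9% and 19.3%, and the gamma class at most 0.963%. In WT P21 the alpha share was 69.1%, 82.2% and 82.8% and the gamma share 8.86%, 4.11% and 2.91%. In R90W/+ P21 C the shares were 45.5% alpha, 40.1% beta and 14.4% gamma. R90W/+ P21 A had 55.7%, 38.5% and 5.87%, and E168d2neo/+ P21 C had 54.2%, 39.4% and 6.38%, so that these 2 libraries of different genotypes were alike in every class. At P10, R90W/+ C had 67.0% alpha, 30.9% beta and 2.15% gamma, and E168d2/+ C had 49.6%, 42.8% and 7.56%. E168d2/d2 P10 A had 51.4% alpha, 34.4% beta and 14.1% gamma.

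**Figure D2:**
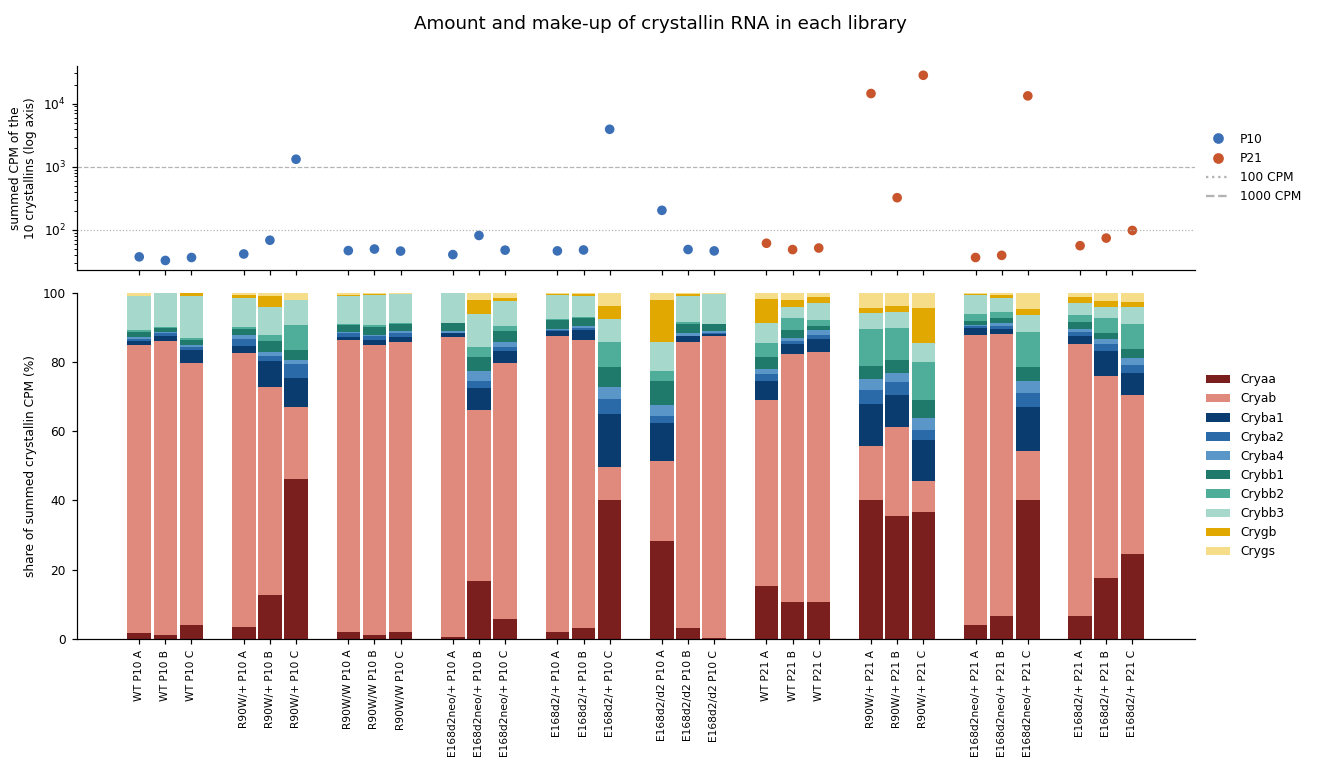
Upper panel, summed CPM of the 10 crystallins in each library on a log axis, with lines at 100 and 1000 CPM. Lower panel, the share of each gene in that sum in percent: Cryab (light red) filled most of the low libraries, while Cryaa (dark red), the beta class (blue and green) and the gamma class (yellow) filled most of the sum in the libraries above 100 CPM.

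The alpha share did not differ detectably with age over the genotypes pooled. Over WT, R90W/+, E168d2neo/+ and E168d2/+, it averaged 77.5% ± 11.6 (SD, n = 12) at P10 and 71.5% ± 14.5 (SD, n = 12) at P21, a difference of -5.98 percentage points. An exact permutation test of age within genotype, two-sided over 160000 arrangements, gave p = 0.247. Without E168d2/+ P10 C the difference was -9.09 points with p = 0.0377 in the same exact test, and with Cryab and Crybb3 left out, so that Cryaa alone made up the alpha class, it turned to 11.4 points with an exact p of 0.0124. In WT alone the share was 5.53 points lower at P21, with overlapping groups and an exact permutation p of 0.4 (two-sided, n = 3 and 3, where 0.1 is the smallest p possible). In R90W/+ the difference was -20.02 points, from 67.0% to 82.6% at P10 and from 45.5% to 61.2% at P21, with no overlap. The beta and gamma members passed 5 CPM in all replicates in R90W/+ P21 alone. The filter thus favoured a low alpha share in that group, and nothing is read from this difference. The same group enters the pooled tests above, which share this limit. In E168d2neo/+ the mean was 1.03 points lower and in E168d2/+ 2.67 points higher at P21, both with overlap.

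To set aside the low level common to all libraries, the lowest library of the same group was subtracted from 6 of the libraries above 100 CPM (for R90W/+ P21 this was replicate B, itself at 322 CPM). The alpha share of what remained was 66.5% in R90W/+ P10 C, 49.2% in E168d2/+ P10 C and 40.8% in E168d2/d2 P10 A. At P21 it was 55.6% in R90W/+ A, 45.3% in R90W/+ C and 54.1% in E168d2neo/+ C. The P10 and P21 values overlapped, and the 3 P10 libraries spanned a wider range than the 3 P21 libraries. Cryaa took between 36.6% and 47.5% of the remainder in all 6. Cryab per unit of Cryaa was highest in R90W/+ P10 C (0.400), followed by R90W/+ P21 A (0.382), E168d2neo/+ P21 C (0.344), R90W/+ P21 C (0.232), E168d2/+ P10 C (0.215) and E168d2/d2 P10 A (0.115). Crybb1 per unit of Cryaa ran through these libraries in nearly the opposite order, from 0.0584 in R90W/+ P10 C to 0.232 in E168d2/d2 P10 A. Crygb per unit of Cryaa was also lowest in the former, at 0.00315, and highest in the latter, at 0.430.

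Ratios to Cryaa were taken in the 14 libraries with at least 100 Cryaa reads, 5 at P10 and 9 at P21, and each is given for single libraries without a test. Crybb2 had 0.124, 0.155, 0.177, 0.179 and 0.108 reads per Cryaa read in R90W/+ P10 B, R90W/+ P10 C, E168d2neo/+ P10 B, E168d2/+ P10 C and E168d2/d2 P10 A. In the P21 libraries the ratio had a median of 0.270 and ran from 0.164 in WT P21 C, which rests on 21 Crybb2 reads (exact 95% interval 0.0982 to 0.262), to 0.337 in WT P21 B. The other 7 P21 libraries were between 0.258 and 0.297, above all P10 libraries, whether Cryaa was at 9.32 CPM (WT P21 A, 0.274) or at 10303 CPM (R90W/+ P21 C, 0.297). Crygs followed a like course, from 0.0430 to 0.117 at P10 and from 0.107 to 0.211 at P21. For the other members with Cryaa the ratios of the ages overlapped more. Crygb per Cryaa read had the widest span, 127-fold, from 0.00359 in R90W/+ P10 C (44 reads) to 0.457 in WT P21 A (95 reads), and within R90W/+ P21 it was 0.0329, 0.0459 and 0.273.

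**Figure D3:**
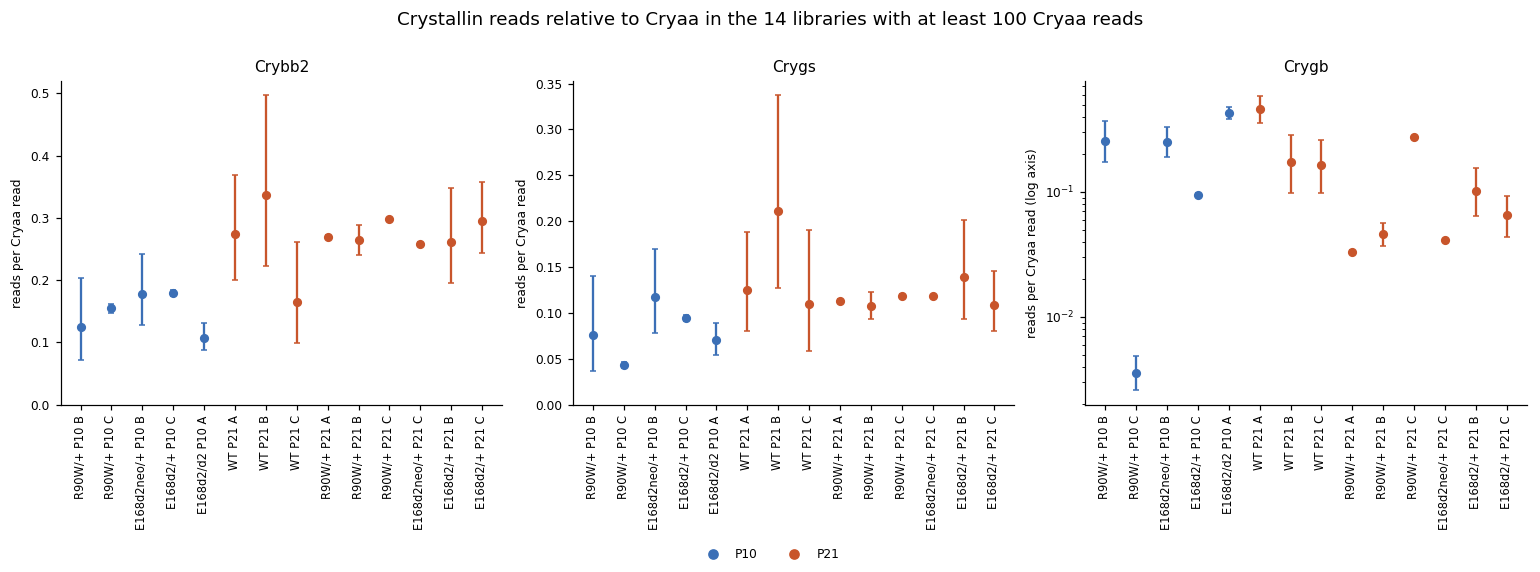
Reads of Crybb2, Crygs and Crygb per Cryaa read in the 14 libraries with at least 100 Cryaa reads, with exact 95% intervals for counting error, Crygb on a log axis. Crybb2 per Cryaa read was at most 0.179 at P10 and at least 0.258 in 8 of the 9 P21 libraries, whereas Crygb showed no order by age.

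Cryab in WT of both ages, and Crybb3 in WT P10, were the members above Cryaa in every library of the group. In WT P10 B, Cryba1 and Crybb1 were also above Cryaa, at 0.503 and 0.432 against 0.360 CPM. Per kilobase of transcript, Crybb1 was above Cryaa in R90W/W P10 too, at 0.965, 1.29 and 0.994 against 0.762, 0.478 and 0.772 CPM per kb. The source of these levels was not tested. Cryab was at 31.0, 27.7 and 27.6 CPM in WT P10 and at 32.9, 34.8 and 37.1 CPM in WT P21. In R90W/W P10 it was at 39.5, 41.5 and 38.5 CPM, while Cryaa there was below 1 CPM. In WT P10 and R90W/W P10 Cryab was thus at 27.6 CPM or more beside at most 1.46 CPM of Cryaa. E168d2neo/+ P10 had 35.0, 40.1 and 35.1 CPM, E168d2/d2 P10 46.9, 40.1 and 40.3 CPM, and E168d2/+ P21 43.9, 43.1 and 44.8 CPM, each a narrow range although Cryaa varied 422-fold within E168d2/d2 P10. The 6 libraries above 46.9 CPM were R90W/+ P10 C (274), E168d2/+ P10 C (376), R90W/+ P21 A, B and C (2241, 82.2 and 2442) and E168d2neo/+ P21 C (1856). Per kilobase of transcript, Cryab was the highest of the 10 in all WT libraries, at 23.3 to 31.3 CPM per kb, and Cryaa was the highest in all 6 libraries named in the subtraction above.

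Crybb3, a basic beta crystallin, was at 3.70, 3.16 and 4.44 CPM in WT P10, which rests on 59, 44 and 76 reads. In WT P21 it was at 3.45, 1.55 and 2.60 CPM. R90W/W P10 held 3.78, 4.33 and 3.85 CPM, within the WT P10 range. E168d2neo/+ P21 A and B were at 1.98 and 1.58 CPM, and E168d2/+ P21 A and B at 1.91 and 2.19 CPM, beside 1.45 to 13.0 CPM of Cryaa. These were below all WT P10 libraries but inside the WT P21 range. E168d2/+ P21 C, at 4.61 CPM beside 23.9 CPM of Cryaa, was above that range. E168d2neo/+ P10 B and R90W/+ P10 B, at 7.61 and 5.53 CPM beside 13.7 and 8.71 CPM of Cryaa, were above all WT P10 libraries. Per kilobase Crybb3 was second only to Cryab in the 3 WT P10 libraries, at 3.55 to 4.97 CPM per kb, and in WT P21 it ranked behind Cryaa.

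**Figure D4:**
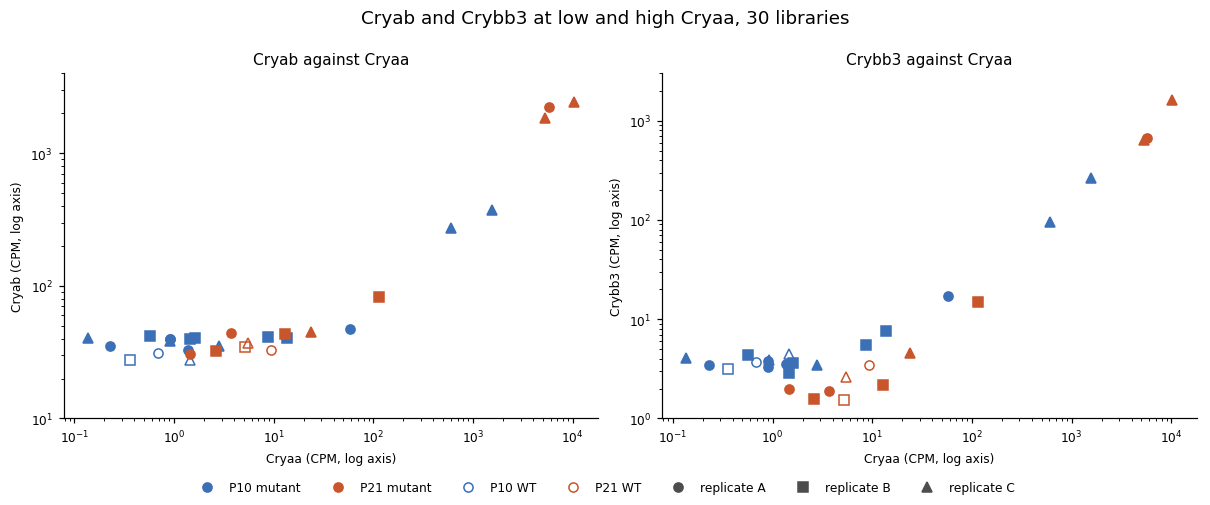
Cryab (left) and Crybb3 (right) against Cryaa in the 30 libraries, both axes in CPM on a log scale, open symbols for WT. Over all groups Cryab stayed near 30 to 47 CPM, and Crybb3 between 1.5 and 8 CPM, until Cryaa passed about 50 CPM. Above that both rose with Cryaa. Within some groups Crybb3 was higher already at lower Cryaa. In E168d2neo/+ P10 B it was at 7.61 CPM beside 13.7 CPM of Cryaa, against 3.43 and 3.42 CPM in A and C.

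In WT retinas most crystallins were at a higher level at P21 than at P10. In 8 of the 10 members all 3 WT P21 libraries were above all 3 WT P10 libraries, in none below (52.3% of all genes were), and Crybb1 and Crybb3 overlapped. Among all 12573 genes 23.9% were higher without overlap, and among the 555 genes with a mean below 5 CPM in WT P10, to which 9 of the members belong, 67.0% were, so that the count of members was close to that of other genes that are low at P10. Cryaa rose 7.89-fold (log2 difference 2.98, SE 0.35; FDR 3.4e-06, limma on log2(CPM + 0.1) with Benjamini-Hochberg adjustment over 12203 genes). It reached the 5 CPM asked for this test in WT P21 alone, the group where it was higher, so that the filter favoured the call, and without a filter the limma FDR was 4.4e-06. Cryab was 1.22-fold higher (log2 difference 0.28, SE 0.07; FDR 0.0021 in limma), above the spread of the libraries but below the 2-fold change asked for a call. The median of all genes tested was -0.17 on the log2 scale in this comparison, so that the rise of Cryab relative to it was larger, 0.45 after scaling each library by its median. In all 1 of the 2 members tested was called, beside 8.83% of all genes. With all 10 groups in 1 fit neither gene passed (FDR 0.313 for Cryaa and 0.833 for Cryab), and in that fit the mutant libraries enter the spread.

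The other 8 members were below the 5 CPM asked for the test in both WT groups. Crybb2 went from 3, 1 and 4 reads in the WT P10 libraries to 57, 35 and 21 in WT P21, and Crygb from 0, 1 and 5 reads to 95, 18 and 21. Both were thus higher in 3 of 3 WT P21 libraries, from counts near the limit of detection at P10. Tested without a filter, 6 of the 10 members were called, beside 9.15% of all genes. Those were Cryaa, Cryba1, Cryba4, Crybb2, Crygb and Crygs, all of them higher at P21. The 9.15% is a share of genes of all levels. Of the genes with a mean below 5 CPM in WT P10, 67.0% were higher at P21 without overlap, so that nothing is read from the 6 calls. Crybb3 was the member whose mean was lower at P21, by 0.61 on the log2 scale. Its WT groups overlapped, and an exact permutation test gave p = 0.2 (two-sided, n = 3 and 3). Without the filter its difference had an FDR of 0.0374 in limma, at less than 2-fold.

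Genes named or related by function were read in the same WT comparison. Of the 13 small and large heat shock genes listed, 9 were tested, 4 rose and none fell by the same limits, against 4.81% and 4.02% of all genes. Hspb6, a small heat shock gene of the family of Cryab, rose from 47.6, 47.1 and 51.7 CPM to 94.3, 105 and 95.2 CPM (2.01-fold; limma FDR 1.3e-09), with no overlap. Hspb8, Hspa1a and Hspa1b also rose, but none of them reached 5 CPM in all WT P10 libraries. They entered the test through WT P21, where they were higher, so that the filter favoured these calls. Of 9 other crystallin genes Crybg3 was analysed, and it was 0.74 lower on the log2 scale without reaching 2-fold. Of 4 enzymes that carry a crystallin name, 3 were tested, and Crym, the thyroid hormone binding mu crystallin, fell by 2.44 on the log2 scale (limma FDR 1.8e-12). Glial genes moved in both directions: 4 of the 10 glial markers rose (Clu, Dkk3, Glul and Kcnj10) and none fell 2-fold. Slc1a3 and Vim were among those lower by less, at 0.542-fold (limma FDR 1.2e-10) and 0.724-fold (limma FDR 1.1e-07). Others were higher by less than 2-fold, and the median of the 10 was 0.52 on the log2 scale. Among the other lists, 6 of the 7 pigment epithelium and melanocyte genes tested and both ciliary body and iris genes rose, 3 of the 8 retinal markers reported here rose, and none of the 5 blood and 2 lens genes was called or had an unadjusted limma p under 0.05. In bulk tissue a change in the number of cells of a type and a change in RNA per cell cannot be told apart.

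Between mutant and WT retinas, all 10 members were higher without overlap in R90W/+ P21, where 8.84% of all genes were, a count that the choice of genes already used. There limma called 8 of the 10, all higher (0.0675% of genes called higher and 0.287% in either direction), and Cryab and Crygb were not called, at 4.45 and 6.45 on the log2 scale. All members but Cryaa and Cryab entered this comparison through the R90W/+ P21 libraries alone, where they were high, so that the choice of genes and the filter had fixed the direction and nothing is read from the count. Without R90W/+ P21 A the members called in all mutant comparisons fell from 8 to 2, and without WT P21 A, B or C to 3, 0 and 0. In the other 7 mutant comparisons, 9 member tests in all, limma called none. In 4 of these tests, all of Cryab, the FDR was below 0.05 and the change below 2-fold, and 6 had an unadjusted p under 0.05. The share of genes called there was 0.25% for R90W/+ P10, 2.15% for R90W/W P10, 1.06% for E168d2neo/+ P10, 1.59% for E168d2/+ P10, 5.51% for E168d2/d2 P10, 0.672% for E168d2neo/+ P21 and 1.58% for E168d2/+ P21.

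Cryab was the member above WT without overlap in most groups, 7 of the 8 mutant groups. In R90W/+ P21 the ratio of the group medians was 64.5, and elsewhere the ratios were small. All 3 libraries were above the 3 WT P10 libraries in each of the 5 mutant groups at P10, which share these WT libraries, and the ratio of the group medians was 1.48 in R90W/+, 1.43 in R90W/W, 1.27 in E168d2neo/+, 1.44 in E168d2/+ and 1.46 in E168d2/d2. The share of all genes higher without overlap was 14.8%, 35.6%, 21.6%, 25.0% and 41.2% in the same order. At P21 it was higher without overlap in E168d2/+ (ratio of medians 1.26, against 29.6% of all genes) and overlapped with WT in E168d2neo/+ (20.8% of genes), where 2 of the 3 libraries were below all WT P21 libraries. Crybb1 was also above WT P10 in all 5 groups, but at low levels: 0.851, 1.13 and 0.877 CPM in R90W/W against 0.564, 0.432 and 0.525 CPM in WT P10.

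Between P10 and P21 of the heterozygotes, R90W/+ had all 10 members called higher (3.35% of genes called higher and 6.54% in either direction). In R90W/+ P10 Cryab alone passed 5 CPM, so the other 9 entered through the P21 libraries where they were high, and nothing is read from this count either. By the same limits 0 of 2 member tests were called in E168d2neo/+ (8.45%) and E168d2/+ (6.31%), with none at an unadjusted p under 0.05. Without R90W/+ P10 A or B the 10 calls became 4 in each case, and without R90W/+ P21 A they became 6. Cryab was 3.42 higher on the log2 scale at P21 in R90W/+, 1.73 higher in E168d2neo/+ and 0.93 lower in E168d2/+, where the P10 group held the library at 376 CPM. The rise in E168d2neo/+ rests on P21 C, at 1856 CPM. Its P21 A and B, at 30.4 and 32.0 CPM, were below all P10 libraries of that genotype (35.0, 40.1 and 35.1 CPM). With the 5 libraries above 1000 CPM left out, a choice made after seeing the data, R90W/+ P21 rests on replicate B alone, whose spread is then assumed to be like that of the other libraries. Cryab was 1.16 higher there at P21 than at P10, and Cryaa 5.00 higher.

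Other genes stood beside the crystallins in the same libraries. For each of Cryaa, Cryab and Crybb3 the 5 genes whose group-centred log2 levels followed it most closely over the 30 libraries were taken. Dock5, a guanine nucleotide exchange factor, led for Cryaa (r = 0.85) and Crybb3 (0.90), and Vit, an extracellular matrix gene, led for Cryab (0.96). B3gnt5, Nid1 and Cd24a (0.91 to 0.92) completed the list of Cryab, Cdkn1c and Fgfr3 (0.84) were on that of Crybb3, and BC030476, Gm5607 and Caprin2 (0.74 to 0.80) on that of Cryaa. Cd24a, a cell surface glycoprotein, was at 161, 9.22 and 191 CPM in R90W/+ P21 A, B and C and at 7.57, 8.89 and 167 CPM in E168d2neo/+ P21. In WT P21 it was at 8.37 to 8.64 CPM. In E168d2/+ P10 C Cd24a was at 141 CPM against 48.5 and 54.1 CPM in A and B. In R90W/+ P10 C, with 1311 CPM of crystallins, it was at 55.3 CPM against 57.5 and 50.8 CPM in A and B. Nid1, a basement membrane protein, was at 137, 14.4 and 67.5 CPM in R90W/+ P21 and at 95.8 CPM in E168d2neo/+ P21 C, against 11.9 to 13.8 CPM in WT P21. Within R90W/+ P21, Nid1 was thus highest in replicate A, where the crystallin sum was below that of C. So were Dock5, Vit, Fgfr3, BC030476 and Gm5607. Cdkn1c (26.7 against 26.5 CPM) and B3gnt5 (14.9 against 14.8 CPM) were higher in A than in C by small margins.

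**Figure D5:**
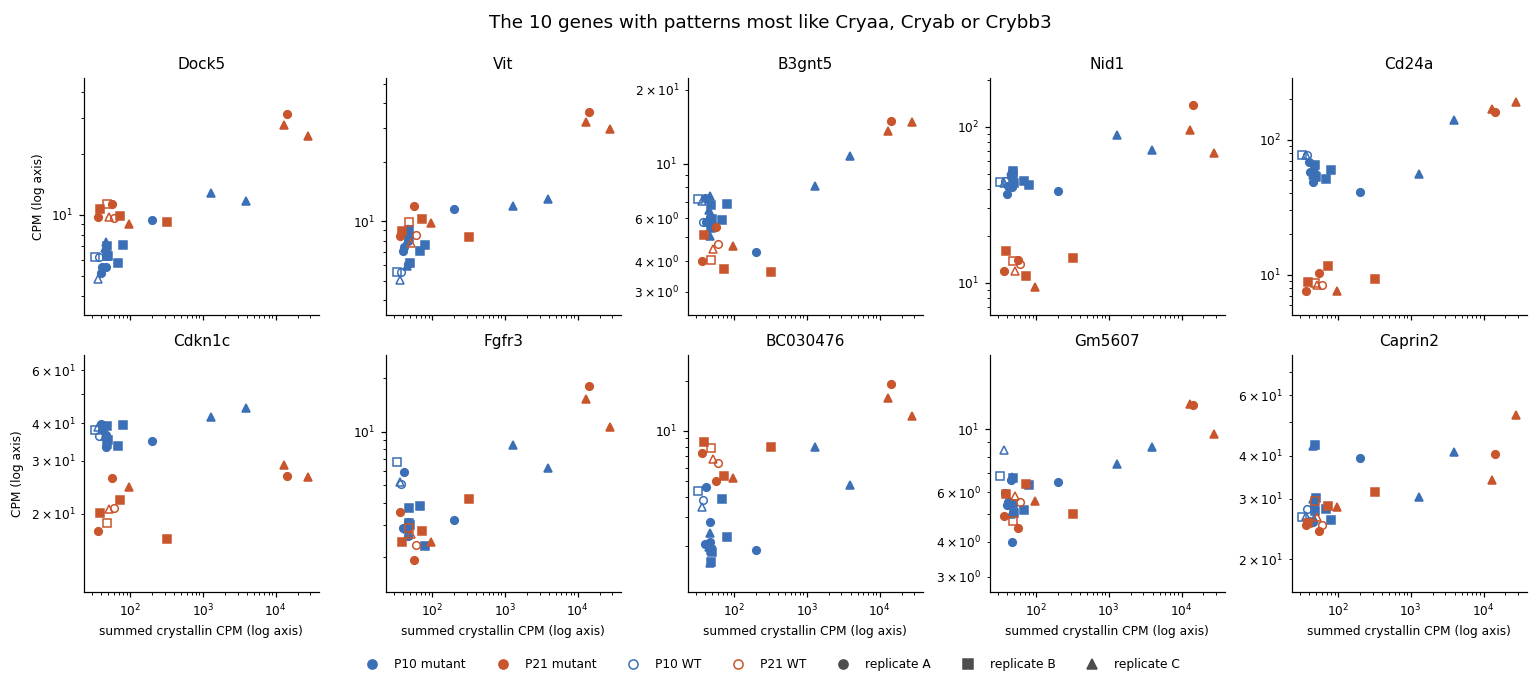
Levels of the 10 genes most like Cryaa, Cryab or Crybb3 against the summed crystallin CPM in the 30 libraries, both axes in CPM on a log scale, open symbols for WT. The 3 P21 libraries with most crystallin RNA stood above the other P21 libraries in every panel, and R90W/+ P21 A (circle) was the highest of them for Dock5, Vit, Nid1, Fgfr3 and BC030476, and by a small margin for B3gnt5.

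In E168d2/d2 P10 A, with 203 CPM of crystallins, these genes were mixed. Dock5 was at 9.41 CPM in it against 7.01 and 7.38 CPM in replicates B and C, and Vit at 11.6 against 9.07 and 9.20 CPM, and Gm5607, BC030476 and Fgfr3 were also highest in A. Its Cd24a was at 40.6 CPM against 65.4 and 60.1 CPM, and its Nid1 at 38.9 against 49.7 and 52.1 CPM, and B3gnt5 and Caprin2 were also lowest in A, while Cdkn1c lay between B and C. Glul, the glial glutamine synthetase, was at 1576 CPM in it against 840 and 902 CPM, and Hbb-b1, a red cell haemoglobin gene, was at 228 CPM against 71.8 and 83.4 CPM. The part of these in its crystallin level was not tested.

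Of 18 lens genes outside the crystallin family, 4 were analysed (Gje1, Tdrd7, Caprin2 and Hsf4), while the membrane and filament genes that define fibre cells were not analysed here. Their summed level was 472 CPM in R90W/+ P21 C and 332 to 355 CPM in A and B, against 342 to 371 CPM in WT P21, and Tdrd7 made up most of it. Caprin2 was at 40.5, 31.5 and 52.4 CPM in R90W/+ P21, and at 25.2 to 29.5 CPM in WT P21, but E168d2/d2 P10 B and C had 42.9 and 42.6 CPM at crystallin sums of 48.7 and 46.3 CPM. Hsf4, the heat shock factor of the lens, was at 7.60, 5.01 and 15.8 CPM in R90W/+ P21 and at 4.26 to 5.59 CPM in WT P21. Caprin2 and Hsf4, and Tdrd7 at 399 CPM, were thus highest in the library with most crystallin RNA. In other libraries rich in crystallin RNA Tdrd7 was mixed. It was at 305 CPM in R90W/+ P21 A, below WT P21 (312 to 339 CPM), and at 210 CPM in E168d2/+ P10 C, the lowest of that group. In R90W/+ P10 C and E168d2neo/+ P21 C it was the highest of the group, at 336 and 271 CPM. Gje1, a connexin gene, was highest in R90W/W P10, at 22.0 to 23.1 CPM. It was at 1.90, 2.88 and 4.64 CPM in R90W/+ P21 A, B and C, so that A was below B and C was the highest P21 library. In E168d2/+ P10 C and E168d2neo/+ P21 C it was 1.69 and 1.62 times the mean of the other 2 libraries of the group. In R90W/+ P10 C it was 0.919 times that mean. Whether lens tissue was the source of the crystallin reads was not tested.

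At P21, markers of other tissues near the retina did not share the order of the crystallins. The 8 pigment epithelium and melanocyte genes analysed summed to 343 CPM in R90W/+ P21 C but to 94.8 CPM in A, the lowest of all P21 libraries. Optc and Wfdc1, of the ciliary body and iris, were at 70.7 and 5.60 CPM in R90W/+ P21 C, below all other P21 libraries. In R90W/+ P21 A and E168d2neo/+ P21 C Optc was at 141 and 161 CPM. At P10 these lists were mixed. In E168d2/d2 P10 A they summed to 260 and 161 CPM, the highest of the group. In E168d2/+ P10 C they summed to 130 and 49.0 CPM, the lowest of the group. R90W/+ P10 C had 138 and 106 CPM, the latter the highest of the group. Vim, an intermediate filament gene of glia and lens, was at 273, 246 and 261 CPM in R90W/+ P21 A and C and E168d2neo/+ P21 C and at 152 to 196 CPM in the other P21 libraries, while the 10 glial genes together spanned 4280 to 4666 CPM in R90W/+ P21 and 4486 to 4771 CPM in WT P21. The cornea markers were not analysed here.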

How the data were processed

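Poly(A)-selected RNA of 30 retinal pools was sequenced as single reads (the labels also name a ribosomal depletion kit). The authors aligned the reads with TopHat2 2.0.5 to mm9, counted them per UCSC gene with HTSeq 0.6.1p1, and deposited CPM values (reads per 1000000 reads on genes, on the scale of edgeR 3.6.8) for the genes with at least 5 CPM in all replicates of a compared group. The same table holds the fold changes, mean levels, p-values and FDR of the authors' 8 mutant comparisons, which were not used. In each library 94.9% to 100% of the values were whole multiples of the CPM of 1 read (within 0.1 read), which gave the depth and the read numbers, and intervals on them cover counting error only.

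Groups and replicate letters were taken from the sample titles. Genes with at least 5 CPM in all replicates of either group were compared by limma 3.58.1 (R 4.3.3) with a variance trend on log2(CPM + 0.1), so that changes of low genes are understated, and were called at FDR 0.05 and 2-fold. Single values were compared by exact permutation tests. Coordinates came from the mm9 gene annotation (GENCODE), promoters from RefSeq. The members, lists and tests were chosen with earlier results of these data known. All 10 members are named, and 1 gene of the retinal list is not reported here. Of each other list the counts and at most 6 genes are named, and for Cryaa, Cryab and Crybb3 the 5 genes with the highest correlation and a mean of at least 1 CPM. Each pool held other mice, so that the replicates are biological. Replicate letters were taken as names only: deviations from the group means of same-lettered libraries correlated from -0.431 to 0.284.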

Additional observations from a re-analysis of the deposited data

How the results depend on the processing

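Alternatives to the pseudocount, filter, scaling, model and set of libraries were computed. The rise of Cryab from WT P10 to P21 kept its direction and stayed below 2-fold in all of them (log2 difference 0.24 to 0.88), and the number of members called in this comparison was 1 in all but 4: it was 2 with a filter of 1 CPM, 6 without a filter, and 0 in the fit of all groups, with or without the lens genes as a covariate. The covariate, which is mostly Tdrd7, turned the Crybb3 difference from -0.61 to 0.28, left 4 of the 8 member calls against WT and 3 of the 10 between ages of the heterozygotes. Limma without a trend left 3 calls against WT. With 1 library left out, the difference of Crybb3 ranged from -0.86 to -0.31, the calls were 1 to 1 in WT, 0 to 12 against WT and 4 to 10 in the heterozygotes, and the difference in the alpha share was -9.09 to -3.17 percentage points. The alpha share turned to 11.4 points without Cryab and Crybb3. Cryab in E168d2neo/+ P21 turned from 1.80 above WT to -0.16 without replicate C, alone or with the other libraries above 1000 CPM (range with 1 library left out, -0.16 to 2.80). With the replicate letter as a block, which the labels do not tie to a shared litter or day, the members called against WT were 10, and the alpha share difference was -5.98 points. A planned count test on the read numbers was not run: the authors' filter left too few low values in a library for the rule set for treating recovered reads as counts. Depth limits Crygb, Crygs and Crybb2 in WT P10, which rest on 0 to 5 reads.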
